A study of Homo sapiens with 24 samples.

Results

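The 39 genes listed for this module code for proteins that build ribosomes in the nucleolus, together with MYC, the transcription factor that drives many of them, and ODC1, the ornithine decarboxylase that makes the first polyamine and is a well-known MYC target. They were chosen by name, and 33 of the 39 were measured among the 11940 genes of the array. FBL, LYAR, WDR43, EBNA1BP2, GNL3 and NOB1 were not named in the probe annotation used here. Each gene was read from 1 probe set, the one with the highest mean over all 24 arrays. Of the 33 genes, 23 had a single probe set and 10 had several.

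The RNA came from A2780, a human ovarian cancer line, in 2 transfected forms. Rab25 cells express RAB25, a small GTPase of recycling endosomes, and pcDNA cells carry the empty vector. The study asked how Rab25 cells and pcDNA cells differ, at rest and under growth factors or serum, on Affymetrix HT-HG_U133A Early Access arrays. All cells were first starved of serum for 8 h. In each line there were 2 arrays with EGF (10 ng/ml), 2 with IGF (10 ng/ml), 2 with TGF beta (5 ng/ml), 2 with fetal bovine serum (FBS, 5%) and 4 of starved cells with nothing added. Each set was divided evenly between experiment 2 and experiment 1. By the protocol, experiment 2 lasted 24 h and experiment 1 lasted 8 h, whereas the source names say 24 h for both, and the time for which starved cells were kept is not given. Each line is 1 transfected line, and the labels do not say whether it was a clone or a pool. The samples are called independent, but nothing says which came from separate cultures, so the p-values below measure the spread between these samples, which may be technical.

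RAB25 itself had a log2 signal of 8.18 to 9.08 on the 12 Rab25 arrays and 4.90 to 5.60 on the 12 pcDNA arrays, so every array matched its line. KRT8, KRT18, KRT7 and PAX8, markers of epithelial and ovarian tumour cells, averaged 12.75, 13.99, 12.75 and 11.86 over all arrays. CDH1 and MUC16, which many ovarian carcinomas express, were near the low end at 5.50 and 4.94 and so were EPCAM and KRT19 on all arrays but 1, whereas the mesenchymal genes VIM and FN1 averaged 15.19 and 14.63. Array medians ran between 7.03 and 7.35. The FBS arrays of Rab25 cells stood apart. A list of 23 stroma, blood, fat and breast markers averaged 7.01 in experiment 2 and 7.74 in experiment 1 on those arrays, against 5.76 to 6.03 on the other 22. Of these markers, 7 and 10 lay more than 1 log2 unit above their median over all arrays. COL3A1, a fibroblast collagen, had 11.00 and 12.76 there and 5.04 to 6.60 elsewhere. SCGB2A2, a breast marker, had 8.84 and 8.57 there and 5.28 to 5.90 elsewhere. PIP, another, had 6.13 and 8.97 there and 5.66 to 6.43 elsewhere. KRT5, KRT14 and DCN, from the same list, stayed within the range of the other arrays. Of the epithelial genes, KRT19 had 9.95 and EPCAM 8.49 on the Rab25 FBS array of experiment 1, 5.54 and 5.12 on that of experiment 2, and at most 5.41 and 5.29 elsewhere. The counts of FBS calls and the FBS differences named below are therefore also given for pcDNA cells alone, unless stated.

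A ribosome starts as a long precursor RNA that RNA polymerase I transcribes in the nucleolus. Small nucleolar ribonucleoproteins (snoRNPs) modify and help to cut this RNA, and separate sets of assembly factors shape the small and the large subunit around it before both leave for the cytoplasm. MYC, with its partner MAX, binds the E-box letters CACGTG near the start of many of these genes, and growth factors and serum are known to raise their transcription in many cell types.

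The promoter letters of members are shown because CACGTG was common in them. The RefSeq promoter table of build GRCh38.p14 holds windows of 250 bases before to 50 after a gene's start. It listed 33 of the 39 genes, and MYC, NOLC1, RRP1B, RRS1, BOP1 and URB2 were not among them. CACGTG, which reads the same on both strands, stood in at least 1 window of 18 of these 33 genes (54.5%). Among the listed genes that the array measured it stood in 13 of 27 (48.1%). Of the 9593 array genes with a window, 1127 held it (11.7%), and 2396 of all 27305 genes listed did (8.77%). A match is a description of the letters and not a measured binding site. The windows below belong to the 5 genes of lowest p among those that held CACGTG and were higher with IGF. Capitals mark CACGTG, and the position given is that of its first base, counted with the start site as 1. The DDX21 window shown lies on chr10:68956397-68956696, plus strand, with the letters at -31. Another DDX21 window, chr10:68955920-68956219, covers the gene's listed start at 68956170 and does not hold CACGTG. BYSL lies on chr6:41921249-41921548, plus strand, with the letters at 29. PWP2 lies on chr21:44107149-44107448, plus strand, with the letters at 2. GNL2 lies on chr1:37595888-37596187, minus strand, with the letters at 4. NOP2 lies on chr12:6568242-6568541, minus strand, with the letters at 36.
DDX21: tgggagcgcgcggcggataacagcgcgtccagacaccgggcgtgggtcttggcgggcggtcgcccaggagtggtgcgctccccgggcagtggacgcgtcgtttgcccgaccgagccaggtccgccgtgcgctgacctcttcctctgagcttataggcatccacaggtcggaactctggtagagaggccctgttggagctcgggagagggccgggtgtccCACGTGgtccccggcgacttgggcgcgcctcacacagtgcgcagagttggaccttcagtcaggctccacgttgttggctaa
BYSL: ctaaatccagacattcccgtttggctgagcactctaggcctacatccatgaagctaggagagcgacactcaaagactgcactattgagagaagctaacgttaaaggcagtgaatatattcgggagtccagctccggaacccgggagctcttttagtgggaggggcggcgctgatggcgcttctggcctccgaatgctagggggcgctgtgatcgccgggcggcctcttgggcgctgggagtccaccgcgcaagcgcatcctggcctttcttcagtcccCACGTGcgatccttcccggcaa
PWP2: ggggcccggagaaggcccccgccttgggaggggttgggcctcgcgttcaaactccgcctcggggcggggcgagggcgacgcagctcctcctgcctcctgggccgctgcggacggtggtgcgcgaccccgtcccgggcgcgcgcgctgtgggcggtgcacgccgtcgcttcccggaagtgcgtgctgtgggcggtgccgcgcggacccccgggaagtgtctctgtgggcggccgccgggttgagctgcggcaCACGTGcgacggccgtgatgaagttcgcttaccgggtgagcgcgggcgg
GNL2: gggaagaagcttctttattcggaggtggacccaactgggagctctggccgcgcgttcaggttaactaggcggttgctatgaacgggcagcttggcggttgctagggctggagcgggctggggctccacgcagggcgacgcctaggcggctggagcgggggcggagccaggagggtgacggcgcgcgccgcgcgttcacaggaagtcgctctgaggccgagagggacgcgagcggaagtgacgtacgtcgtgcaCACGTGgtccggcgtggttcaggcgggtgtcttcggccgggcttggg
NOP2: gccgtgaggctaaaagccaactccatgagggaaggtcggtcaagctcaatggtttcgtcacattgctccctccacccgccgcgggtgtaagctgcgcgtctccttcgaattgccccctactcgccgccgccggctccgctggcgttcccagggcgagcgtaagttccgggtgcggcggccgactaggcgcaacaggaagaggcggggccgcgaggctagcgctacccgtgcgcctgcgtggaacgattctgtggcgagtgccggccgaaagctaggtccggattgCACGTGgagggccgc

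The members were mostly bright. NPM1, the nucleolar chaperone nucleophosmin, averaged a log2 signal of 14.81 over all arrays, above 99.7% of genes, and varied least, with an SD of 0.041 (n = 24). MYC averaged 13.16 (SD 0.242) and stood above 97.0% of genes. NCL, the nucleolar RNA-binding protein nucleolin, averaged 13.42, and DDX21, a nucleolar RNA helicase, averaged 12.86. RRP9, a protein of the U3 snoRNP, was lowest at 7.59. URB2, a large-subunit assembly factor, varied most, with an SD of 0.554 around a mean of 8.36. Probe sets differ in how they bind, so these signals rank neither transcripts nor proteins. The 2 starved arrays that shared a line and an experiment were close to each other, with a median absolute difference over members of 0.050 and 0.077 log2 in Rab25 cells of experiment 2 and experiment 1, and by 0.093 and 0.058 in pcDNA cells.

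The average signal of the members followed the experiment on every array. Taking each gene's signal minus its own mean over the 24 arrays, the average over the 33 members lay between 0.05 and 0.40 on all 12 arrays of experiment 2 and between -0.36 and -0.01 on all 12 arrays of experiment 1. The groups did not overlap. The same average over 72 other ribosome biogenesis factors ran from -0.02 to 0.22 in experiment 2 and from -0.20 to -0.01 in experiment 1, a slight overlap. Over 67 cytosolic ribosomal proteins it stayed between -0.02 and 0.02 on all 24 arrays, with signals near the top of the range (median 14.74). POLR1C, NOP56, DKC1, NOP14, NOP16, NIP7 and URB2 were each higher on every array of experiment 2 than on any array of experiment 1, a separation that 1.44% of all genes showed in that direction and 1.35% in the other. Experiment 2 minus experiment 1 gave a median over members of 0.53 with EGF, 0.50 with IGF, 0.47 with TGF beta, 0.33 with FBS and 0.41 without additions in Rab25 cells. In pcDNA cells the medians were 0.46, 0.48, 0.42, 0.36 and 0.25 in the same order of treatments.

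**Figure D1:**
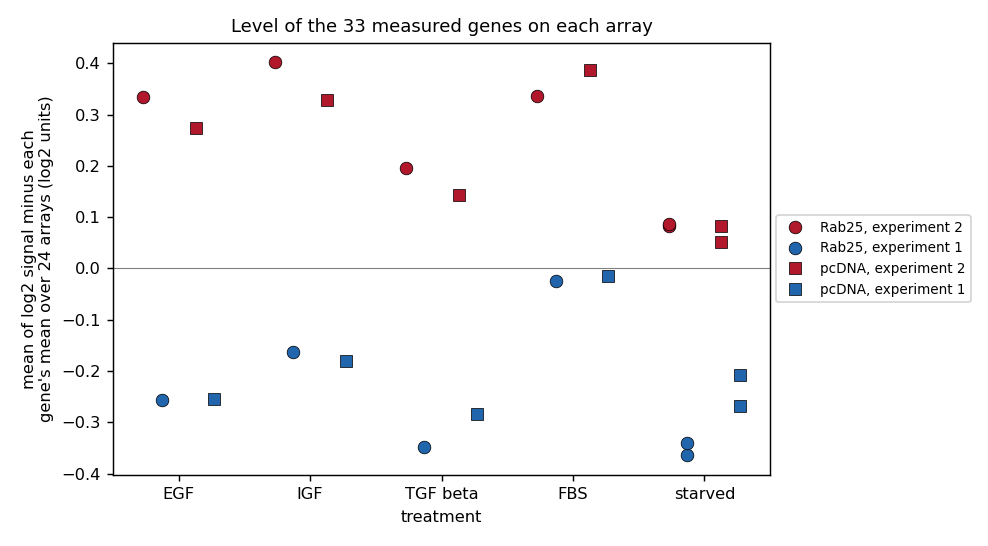
Each point is 1 array, the mean over the 33 genes of log2 signal minus the gene's mean over 24 arrays (vertical axis), by treatment (horizontal axis), with Rab25 as circles, pcDNA as squares, experiment 2 in red and experiment 1 in blue. All 12 experiment 2 arrays lie above 0 and all 12 experiment 1 arrays lie below it.

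Starved cells show the experiments apart from any added factor, and there 27 of the 33 members were higher in experiment 2 than in experiment 1 and 0 were lower. Over all genes, 14.8% were higher and 16.6% lower by the same rule, an adjusted p under 0.05 from limma, a linear model fitted over all 11940 genes with Benjamini-Hochberg adjustment. The median difference was 0.33 log2 over members and 0.01 over all genes. BOP1, NOP56, URB2 and DKC1 moved most firmly, and MYC was higher as well. In total RNA, a shift in the kinds of cells present and a shift in RNA per cell cannot be told apart, nor can exposure time, sample batch and any other way in which the experiments differed.

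BOP1, which forms the PeBoW complex of large-subunit processing with PES1 and WDR12, had log2 signals of 9.49 and 9.53 in starved Rab25 cells of experiment 2, against 8.51 and 8.57 in those of experiment 1. Starved pcDNA cells had 9.78 and 9.90 in experiment 2, against 8.95 and 8.94 in experiment 1. All 4 arrays of experiment 2 lay above all 4 of experiment 1, and the difference was 0.93 (SE 0.048, limma adjusted p = 9.45e-08). DKC1, the pseudouridine synthase of the H/ACA snoRNPs, had 11.89 and 11.86 in Rab25 and 11.64 and 11.77 in pcDNA cells of experiment 2, against 11.19 and 11.16 in Rab25 and 11.17 and 11.11 in pcDNA cells of experiment 1. Its difference was 0.63 (SE 0.0498, limma adjusted p = 1.79e-06), again with no overlap. URB2 had 8.55 and 8.41 in Rab25 and 8.64 and 8.53 in pcDNA cells of experiment 2, against 7.87 and 7.72 in Rab25 and 7.84 and 7.90 in pcDNA cells of experiment 1. It differed by 0.70 (SE 0.0607, limma adjusted p = 3.34e-06). NOP56, a core protein of the C/D snoRNPs, had 12.04 and 12.19 in Rab25 and 11.77 and 11.92 in pcDNA cells of experiment 2, against 11.39 and 11.17 in Rab25 and 11.11 and 11.15 in pcDNA cells of experiment 1. It differed by 0.78 (SE 0.071, limma adjusted p = 5.19e-06). For URB2 and NOP56 too, the lowest array of experiment 2 lay above the highest of experiment 1.

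MYC had 13.24 and 13.27 in starved Rab25 and 13.19 and 13.23 in starved pcDNA cells of experiment 2, against 12.74 and 12.95 in Rab25 and 12.91 and 13.01 in pcDNA cells of experiment 1. The 4 arrays of experiment 2 lay within 0.1 of each other and above all of experiment 1, and the difference was 0.33 (SE 0.0775, limma adjusted p = 0.00547).

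By role, POLR1C, a subunit of RNA polymerases I and III, was higher in experiment 2 by 0.37, whereas POLR1B, the second-largest subunit of RNA polymerase I, differed by 0.16 and did not pass. Of the 6 snoRNP genes 5 were higher, and RRP9 at 0.12 was not called. NHP2 and GAR1, H/ACA proteins like DKC1, were higher by 0.53 and 0.33, and NOLC1, a snoRNP chaperone, by 0.35. Of the 4 nucleolar RNA-binding proteins, NCL, DDX21 and RRP1B were higher by 0.33, 0.21 and 0.19. NPM1 differed by 0.04 and was not called. All 8 small-subunit factors were higher, by 0.21 (HEATR1) to 0.64 (UTP20). Of the 11 large-subunit factors 9 were higher, by 0.20 (PES1) to 0.93 (BOP1), and WDR12 at 0.17 and PPAN at 0.26 were not called. ODC1 was the single member with a value below 0, at -0.10, and it was not called.

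In 23 of the 33 members the 4 starved arrays of experiment 2 all lay above the 4 of experiment 1, and 11.8% of all genes did so, with 12.2% the other way. Within Rab25 cells 32 members had both arrays of experiment 2 above both of experiment 1 (29.2% of all genes), and within pcDNA cells 25 did (30.0%). Rab25 and pcDNA cells were not shown to differ in this respect. The limma test of the difference between the lines called 0 members and 0.109% of all genes. It gave 4 members and 1535 of the 11940 genes an unadjusted p under 0.05. PES1 was not called without any 1 of 17 of the 24 arrays, and DDX21 without any 1 of 5. The log2 3' minus 5' signal of actin, an RNA quality control on the array, was 0.69, 0.90, 0.82 and 0.93 in starved cells of experiment 2 and 1.07, 0.76, 1.17 and 0.91 in those of experiment 1, and its part in the result was not tested.

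**Figure D2:**
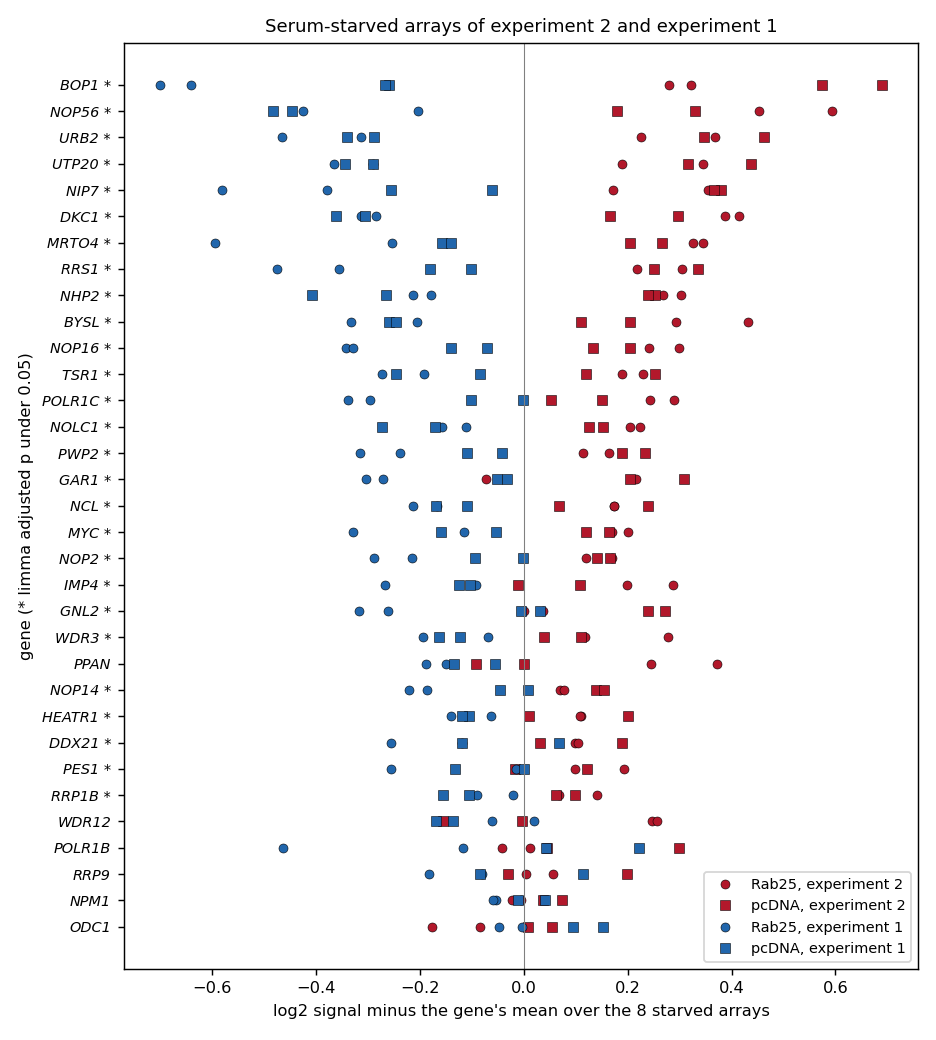
Each point is 1 of the 8 starved arrays, with log2 signal minus the gene's mean over these 8 arrays on the horizontal axis and genes down the page. Stars mark an adjusted p under 0.05. BOP1 is shifted most, by 0.93, and NPM1 by 0.04.

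IGF was set against starved cells over both lines and both experiments, with the experiment as a term of the model. It was accompanied by higher signals of 9 of the 33 members and lower signals of 0, where 1.17% of all genes were higher, 1.53% lower and 2.71% either. The 9 were DDX21, BYSL, PWP2, DKC1, GNL2, NOP2, NOP16, ODC1 and TSR1, with differences of 0.20 to 0.44 log2. The median was 0.22 over members and 0.00 over all genes, and 31 of the 33 members had a value above 0, as did 49.6% of all genes. Of the 9, 6 held CACGTG in at least 1 window (66.7%), namely DDX21, BYSL, PWP2, GNL2 and NOP2, printed above, and ODC1. For DDX21 and ODC1 another window, at the gene's listed start, did not hold it. Among measured members with a window 13 of 27 held it (48.1%), and 11.7% of array genes did. Whether the letters bear on the IGF differences was not tested.

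DDX21 had 13.36 and 12.96 with IGF in Rab25 cells of experiment 2 and experiment 1 and 13.26 and 12.99 in pcDNA cells. Starved cells of both lines had 12.76 to 12.92 in experiment 2 and 12.47 to 12.80 in experiment 1. Every IGF array lay above all starved arrays of both experiments, and the difference was 0.41 (SE 0.0661, limma adjusted p = 0.00422). BYSL, which takes part in small-subunit maturation, had 10.37 and 9.63 with IGF in Rab25 and 10.14 and 9.40 in pcDNA cells of experiment 2 and experiment 1. Its starved values were 9.61 to 9.93 in experiment 2 and 9.17 to 9.29 in experiment 1. The difference was 0.39 (SE 0.0681, limma adjusted p = 0.00769), and within each experiment the IGF arrays lay above the starved ones.

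PWP2, a scaffold of the U3 snoRNP particle that begins small-subunit assembly, had 9.54 and 9.09 with IGF in Rab25 and 9.57 and 9.05 in pcDNA cells of experiment 2 and experiment 1. Its starved values were 9.13 to 9.25 in experiment 2 and 8.71 to 8.98 in experiment 1, again below the IGF arrays of the same experiment. The difference was 0.29 (SE 0.0576, limma adjusted p = 0.0139). DKC1 had 12.23 and 11.59 with IGF in Rab25 and 11.94 and 11.30 in pcDNA cells, against 11.64 to 11.89 in starved cells of experiment 2 and 11.11 to 11.19 in those of experiment 1. It differed by 0.29 (SE 0.0578, limma adjusted p = 0.0144), with no overlap within an experiment.

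Among large-subunit factors, NOP2, a methyltransferase of the large ribosomal RNA, differed by 0.44, NOP16 by 0.40 and GNL2, a nucleolar GTPase, by 0.20. TSR1, a late small-subunit factor, differed by 0.25 and ODC1 by 0.22. MYC did not pass. It had 13.65 and 12.88 with IGF in Rab25 and 13.49 and 13.10 in pcDNA cells of experiment 2 and experiment 1, against 13.19 to 13.27 and 12.74 to 13.01 in starved cells of the same experiments. In experiment 1 the Rab25 value lay within the starved range, and the difference over all was 0.21 (limma adjusted p = 0.31). The same 21 members were higher with IGF than the mean of the matching starved arrays in every combination of line and experiment. Of all genes, 13.0% were.

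The IGF count rested on few arrays. It fell to 3 without any 1 of the IGF arrays of pcDNA cells or the IGF array of Rab25 cells in experiment 1, to 5 without the first starved pcDNA array of experiment 2, and to 0 without the experiment term. The median IGF response over members was 0.30 in Rab25 and 0.23 in pcDNA cells of experiment 2, against 0.21 and 0.07 in experiment 1. DDX21 differed by 0.47 and BYSL by 0.50 in experiment 2, against 0.35 and 0.28 in experiment 1, where neither passed (limma adjusted p = 0.0624 and 0.0706). DDX21 and BYSL were called whichever single array was left out.

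**Figure D3:**
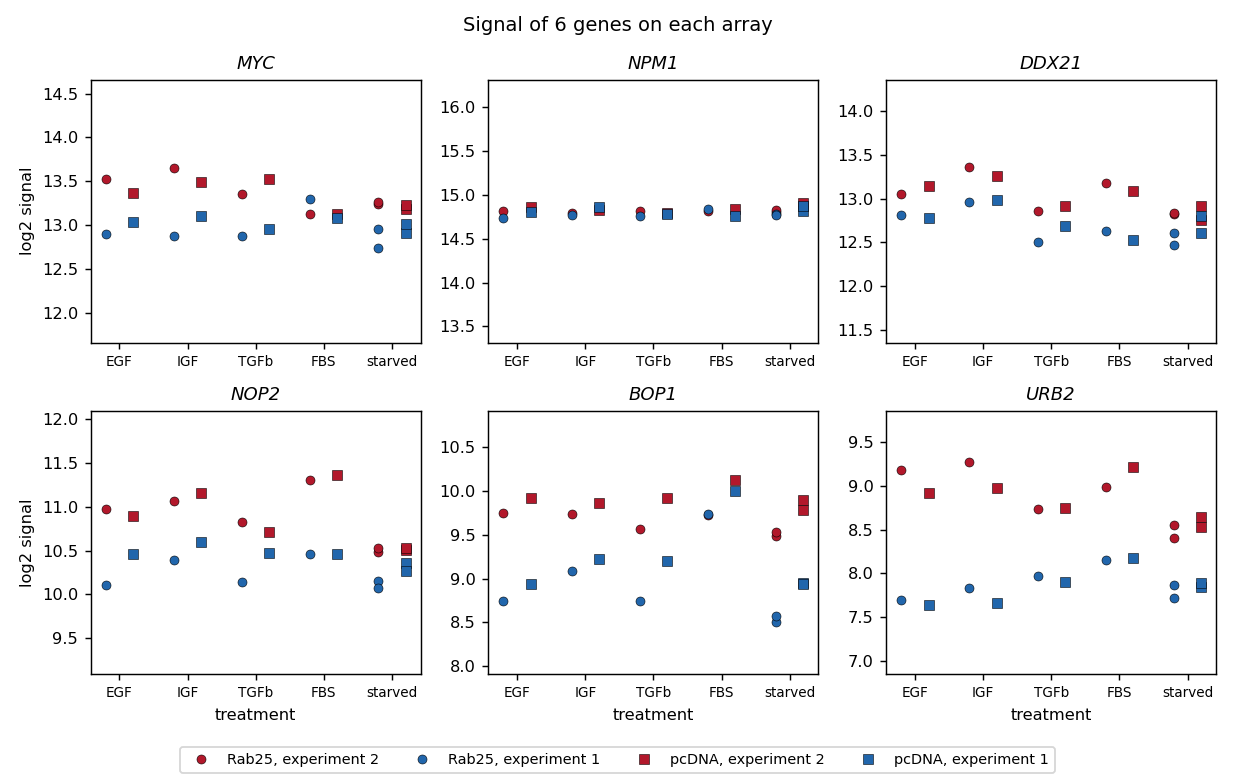
Log2 signal (vertical axis, the same span in each panel) of MYC, NPM1, DDX21, NOP2, BOP1 and URB2, chosen after their values were seen, on each of the 24 arrays by treatment, with Rab25 as circles, pcDNA as squares, experiment 2 in red and experiment 1 in blue. NPM1 stays between 14.74 and 14.91, and URB2 is higher on each of the 12 arrays of experiment 2 than on any of experiment 1.

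FBS was accompanied by higher signals of 20 of the 33 members and lower signals of 0, where 6.43% of all genes were higher. The median was 0.29 over members and -0.03 over all genes. They were 5 of 6 snoRNP genes, 2 of 4 nucleolar RNA-binding genes, 5 of 8 small-subunit and 8 of 11 large-subunit factors, and neither RNA polymerase I gene and not MYC. In pcDNA cells alone, without the Rab25 FBS arrays that stood apart, 14 members were higher and 0 lower (4.40% of all genes higher). In Rab25 cells alone 11 were higher and 0 lower (2.64%). RRP9, NHP2, NCL, IMP4, HEATR1, WDR12 and URB2 were each lost without at least 1 single array.

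GNL2 had 11.28 and 11.02 with FBS in Rab25 and 11.24 and 11.04 in pcDNA cells of experiment 2 and experiment 1, against 10.84 to 11.11 in starved cells of experiment 2 and 10.52 to 10.87 in those of experiment 1. It differed by 0.31 (SE 0.0432, limma adjusted p = 0.000234), with no overlap within an experiment. In pcDNA cells alone it differed by 0.17 and did not pass (limma adjusted p = 0.0944), and in Rab25 cells alone it differed by 0.44 (limma adjusted p = 0.00057). NOP56 had 12.63 and 11.57 with FBS in Rab25 and 12.38 and 11.68 in pcDNA cells, against 11.77 to 12.19 and 11.11 to 11.39 in starved cells of experiment 2 and experiment 1. It differed by 0.47 (SE 0.073, limma adjusted p = 0.000508), and again the FBS arrays lay above the starved ones of the same experiment.

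DKC1 had 12.17 and 11.63 with FBS in Rab25 and 12.00 and 11.55 in pcDNA cells, above the starved ranges given with IGF, and it differed by 0.37 (SE 0.0578, limma adjusted p = 0.00057). In pcDNA cells alone NOP56, DKC1 and BYSL kept their calls, at 0.54, 0.36 and 0.42. BYSL had 10.32 and 9.64 in Rab25 and 10.21 and 9.54 in pcDNA cells, also above its starved ranges, and differed by 0.43 (SE 0.0681, limma adjusted p = 0.000603). Other differences that passed ran between 0.22 (NCL) and 0.69 (BOP1). They included RRS1 at 0.60, NOP16 at 0.55, NOP2 at 0.53, WDR3 at 0.46 and URB2 at 0.45. Of these, BOP1, RRS1, NOP16 and NOP2 passed in pcDNA cells alone, at 0.67, 0.67, 0.52 and 0.50, and NCL at 0.20, WDR3 at 0.38 and URB2 at 0.47 did not (limma adjusted p = 0.0702, 0.056 and 0.0874). MYC had 13.12 and 13.30 with FBS in Rab25 and 13.12 and 13.08 in pcDNA cells of experiment 2 and experiment 1, so that it was below all starved arrays in experiment 2 and above them in experiment 1. Its difference over all was 0.09 (limma adjusted p = 0.583), with -0.11 within experiment 2 and 0.29 within experiment 1. The experiment 1 value averages 0.46 in Rab25 cells, whose FBS array stood apart, and 0.12 in pcDNA cells. The value in pcDNA cells alone was 0.02 (limma adjusted p = 0.95). DDX21 at 0.13 and GAR1 at 0.00 did not pass either. The median FBS response over members was 0.237 in Rab25 and 0.275 in pcDNA cells of experiment 2, against 0.327 and 0.247 in experiment 1. With both experiments together but no experiment term 0 members passed, and 5 passed when arrays were weighted by their quality.

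The response to FBS differed between the experiments for 10 of the 33 members (30.3%) and for 22.5% of all genes. The FBS response, FBS minus starved, was larger in experiment 2 than in experiment 1 for NOP2, NOP16, RRS1, RRP9 and DDX21 (9.53% of all genes called in that direction). It was smaller in experiment 2 for BOP1, NHP2, WDR12, HEATR1 and UTP20 (12.9% of all genes). This count of 5 and 5 became 11 and 3 when each array was centred on its median, and 6 and 4 after quantile normalization, and the centring moved the median of all genes in this difference to 0.09, against -0.04 as deposited.

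BOP1 responded by 0.22 in Rab25 and 0.28 in pcDNA cells of experiment 2, against 1.20 and 1.06 in experiment 1. With FBS it reached 9.73 and 10.12 in Rab25 and pcDNA cells of experiment 2 and 9.74 and 10.00 in experiment 1, so the FBS levels were close and the starved levels were not. The responses differed by -0.88 (SE 0.0832, limma adjusted p = 2.64e-05). NHP2 and WDR12 differed in the same direction by -0.48 each (SE 0.1013 and 0.1129, limma adjusted p = 0.00446 and 0.00826), and HEATR1, a small-subunit factor, by -0.37 (SE 0.098, limma adjusted p = 0.0156). NOP2 went the other way, with responses of 0.79 in Rab25 and 0.85 in pcDNA cells of experiment 2, against 0.35 and 0.15 in experiment 1, a difference of 0.58 (SE 0.14, limma adjusted p = 0.0102). NOP16 differed by 0.46 (SE 0.1195, limma adjusted p = 0.014), RRS1 by 0.53 (SE 0.143, limma adjusted p = 0.017) and RRP9 by 0.37 (SE 0.1129, limma adjusted p = 0.0339). MYC responded by -0.13 in Rab25 and -0.09 in pcDNA cells of experiment 2, against 0.46 and 0.12 in experiment 1. The difference of -0.40 did not pass (SE 0.1343, limma adjusted p = 0.0507), and it was -0.29 without both Rab25 FBS arrays. BOP1 was the single one of these genes that was called whichever single array was left out, and without both Rab25 FBS arrays it differed by -0.81. Without those arrays NOP2, NOP16, RRS1 and RRP9 differed by 0.61, 0.47, 0.39 and 0.30 and NHP2, WDR12 and HEATR1 by -0.35, -0.32 and -0.30, and none of these passed. In all, 0 members were then called higher and 2 lower, BOP1 and UTP20 (7.45% and 5.37% of all genes).

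**Figure D4:**
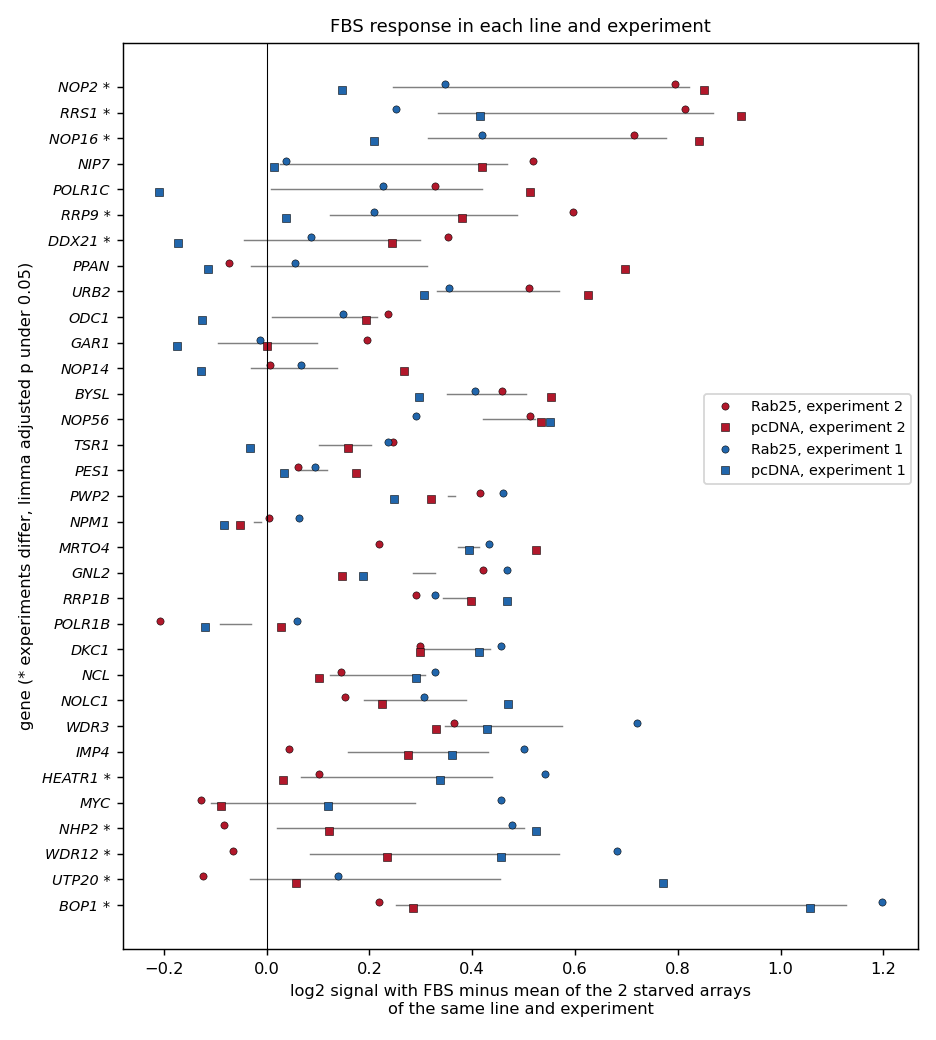
For each gene, log2 signal with FBS minus the mean of the 2 starved arrays that match in line and experiment (horizontal axis), with Rab25 as circles, pcDNA as squares, experiment 2 in red, experiment 1 in blue and a grey line joining the experiment means. Stars mark genes whose experiments differed (adjusted p under 0.05), among them BOP1 with 0.22 and 0.28 in experiment 2, against 1.20 and 1.06 in experiment 1.

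For the other treatments fewer members were called. URB2 responded to EGF by 0.70 in Rab25 and 0.33 in pcDNA cells of experiment 2, against -0.10 and -0.23 in experiment 1, and the difference was 0.68 (SE 0.1051, limma adjusted p = 0.0303), the 1 member called where 0.067% of all genes were higher and 0.0838% differed either way. Its call was lost without any 1 of 15 of the 24 arrays and under either rescaling of the arrays. For IGF 3 members were called, where 1.08% of all genes were higher and 1.42% differed either way. URB2 differed by 0.68 (limma adjusted p = 0.00827), RRP1B by 0.41 (limma adjusted p = 0.0236) and RRS1, which helps to bring 5S RNA into the large subunit, by 0.70 (limma adjusted p = 0.0308). URB2 was lost without either IGF array of Rab25 cells, RRP1B without any 1 of 6 arrays and RRS1 without any 1 of 10. RRP1B and RRS1 were also lost when each array was centred on its median. RRS1 responded to IGF by 0.66 in Rab25 and 0.63 in pcDNA cells of experiment 2, against -0.05 and -0.06 in experiment 1. For TGF beta 0 members were called, with 0.335% of all genes higher. A moderated F test over the 4 treatments called 10 members where 16.9% of all genes were called, and 5 without both Rab25 FBS arrays or without either of them, and 6 without the second starved pcDNA array of experiment 2.

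EGF called 0 members and 0% of all genes by limma's adjusted p. At an unadjusted p under 0.05 there were 13 members, all higher, and 811 of the 11940 genes, of which 434 were higher. The median was 0.14 over members and 0.00 over all genes, and 32 of the 33 members had a value above 0, as did 50.9% of all genes. In experiment 2 it was 0.236 in Rab25 and 0.179 in pcDNA cells, with 32 and 31 members above 0. In experiment 1 it was 0.125 and 0.007, with 25 and 17 members above 0. The members of lowest p, BYSL at 0.24 and GNL2 at 0.15, each had a limma adjusted p of 0.503, and MYC had 0.13. With EGF, the same 12 members were above the matching starved mean in every combination of line and experiment, as were 10.7% of all genes. All treatments were set against the same starved arrays. TGF beta called 0 members, where 0.846% of all genes were higher, 0.754% lower and 1.6% either. It had 1 member and 1253 of the 11940 genes at an unadjusted p under 0.05. Its median over members was 0.05, and the members of lowest p were NOP56 at 0.16 (limma adjusted p = 0.462) and BYSL at 0.14 (limma adjusted p = 0.481). MYC had 0.11 with TGF beta.

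Set directly against EGF, IGF called 0 members and 0% of all genes. An unadjusted p under 0.05 was reached by 2 members (DDX21 at 0.19 and DKC1 at 0.15) and 443 of the 11940 genes. Set against FBS, IGF gave a higher DDX21 by 0.28 (SE 0.0763, limma adjusted p = 0.0258, with 7.24% of all genes higher) and a lower RRP1B by -0.28 (limma adjusted p = 0.041, with 4.05% lower). Quantile normalization gave 1 member higher and 2 lower, and median centring of the arrays gave 0 and 2, with DDX21 no longer called. Without a single array of FBS or IGF the count of 2 went to 0 (either FBS or IGF array of experiment 1, in Rab25 or in pcDNA cells), to 8 (Rab25 FBS, experiment 2) or to 6 (pcDNA FBS, experiment 2), and it went to 1 without the Rab25 IGF array of experiment 2 or any 1 of 4 starved arrays. Within pcDNA cells alone 0 members were called (2.01% of all genes higher and 1.23% lower), with DDX21 at 0.31 and RRP1B at -0.33 (limma adjusted p = 0.0864 and 0.108).

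Between the lines the module as a whole had a median difference of 0.00 over all 5 conditions. Rab25 cells had higher signals of 4 members (9.14% of all genes higher) and lower signals of 2 (15.5% lower). NOP56 had a lowest, median and highest value of 11.17, 11.81 and 12.63 on the 12 Rab25 arrays, against 11.11, 11.73 and 12.38 on the 12 pcDNA arrays. The ranges overlapped, since both contain both experiments, and the difference with the experiment in the model was 0.23 (SE 0.0506, limma adjusted p = 0.00244). DKC1 was higher in Rab25 by 0.16 (SE 0.04, limma adjusted p = 0.0056), although 2 other probe sets of DKC1 gave 0.29 and -0.04. WDR12 was higher by 0.25 (SE 0.0612, limma adjusted p = 0.00604) and TSR1 by 0.13 (SE 0.0442, limma adjusted p = 0.0339). GNL2 was lower, with 10.52, 10.86 and 11.28 in Rab25 against 10.83, 11.03 and 11.25 in pcDNA and a difference of -0.14 (SE 0.0299, limma adjusted p = 0.00233). BOP1 was lower by -0.28 (SE 0.0862, limma adjusted p = 0.0223). Its partner in the PeBoW complex, WDR12, was thus called in the other direction, and PES1 was not called. MYC differed by -0.02 (limma adjusted p = 0.911). TSR1 was not called without both Rab25 FBS arrays or without any 1 of 8 single arrays, and BOP1 without either of 2 EGF arrays, that of pcDNA cells in experiment 2 and that of Rab25 cells in experiment 1. NOP56 and DKC1 passed within experiment 2 alone (0.30 and 0.20) and not within experiment 1 alone (0.17 and 0.13), whereas GNL2 passed within experiment 1 (-0.19) and not within experiment 2 (-0.08). Median centring of the arrays made the count 5 higher and 1 lower, with GNL2 no longer called, and quantile normalization 5 and 2.

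In starved cells alone 0 members were higher in Rab25 (5.56% of all genes) and 2 were lower (9.24%). GNL2 had 10.87 and 10.84 in Rab25 against 11.11 and 11.08 in pcDNA cells of experiment 2, and 10.52 and 10.58 in Rab25 against 10.87 and 10.83 in pcDNA cells of experiment 1. In each experiment both Rab25 arrays lay below both pcDNA arrays, and the difference was -0.27 (SE 0.0499, limma adjusted p = 0.00163). GAR1 differed by -0.22 (SE 0.07, limma adjusted p = 0.0484), a call lost without any 1 of 18 of the 24 arrays. GNL2 differed by -0.24 within experiment 2, which did not pass (limma adjusted p = 0.0937), and by -0.30 within experiment 1. Without either Rab25 FBS array 4 members were called. Quantile normalization gave 2 members higher and 1 lower, and median centring 1 and 1. The responses of the lines to EGF, IGF and TGF beta differed for 0 members and 0% of all genes by limma. An unadjusted p under 0.05 was reached by 0, 1 and 0 members and by 415, 253 and 622 of the 11940 genes. The FBS responses of the lines differed for 0 members (0.142% of all genes higher in Rab25 and 0.067% lower). Here 1 member and 1315 of the 11940 genes had an unadjusted p under 0.05. GNL2, the member of lowest p, differed by 0.28 (limma adjusted p = 0.222).

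**Figure D5:**
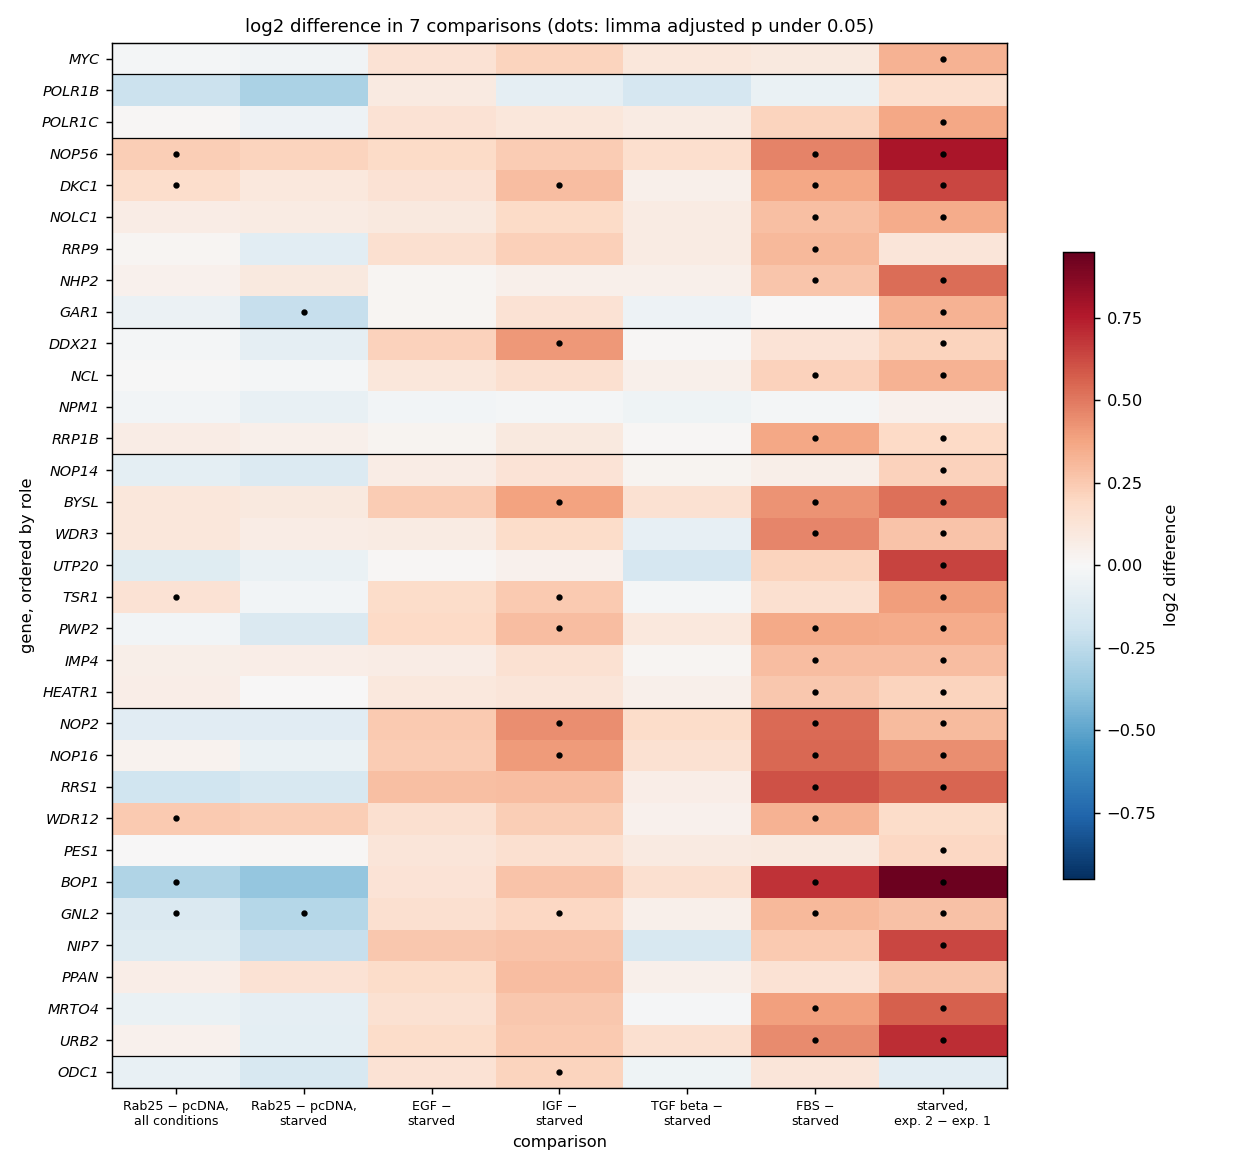
Colour gives the log2 difference of each of the 33 genes (down the page, by role, with lines between roles) in 7 comparisons (across), and dots mark a limma adjusted p under 0.05. The columns for IGF, FBS and starved cells of experiment 2 minus experiment 1 hold 9, 20 and 27 dots, and those for EGF and TGF beta hold 0.

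POLR1B, NPM1 and PPAN passed the threshold in none of the comparisons given here. POLR1B was read from a probe set of a kind that may bind related transcripts. NPM1 was read near the top of the signal range, and its other probe sets gave 0.10 and 0.25 between the experiments in starved cells, against 0.04. The second of these passed in a fit over all probe sets (limma adjusted p = 0.00245). BOP1 had a second, dimmer probe set at 7.18, which gave 0.70 between the experiments and 0.47 with FBS. TSR1 gave 0.22 and 0.04 with IGF on its other probe sets, against 0.25. NOP14 was no longer called between the experiments when the median of its probe sets was used.

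Of 72 other ribosome biogenesis factors measured, 8 were higher and 0 lower with IGF, led by GTPBP4, a nucleolar GTPase of the large subunit, at 0.34, and PDCD11, a small-subunit factor, at 0.49. With FBS 24 were higher and 2 lower, with GTPBP4 at 0.32 and UTP25 at -0.51. With pcDNA cells alone 14 were higher and 2 lower, with UTP25 at -0.48 and GTPBP4 at 0.22, which did not pass (limma adjusted p = 0.0608). Between the experiments in starved cells 27 were higher in experiment 2 and 4 lower, with DIMT1 at 0.52 and POLR1G at 0.83. Over all genes, 1.17% were higher and 1.53% lower with IGF, and 6.43% and 10.8% with FBS. The shares were 4.40% and 6.01% with FBS in pcDNA cells alone and 14.8% and 16.6% between the experiments in starved cells. Of 28 MYC targets outside the nucleolus, 5 were higher and 0 lower with IGF (SRM, spermidine synthase, 0.31, and PPAT, the first enzyme of purine synthesis, 0.24). With FBS 17 were higher and 1 lower (CDC25A, a cell-cycle phosphatase, 0.74, and PPAT 0.35), and between the experiments 21 were higher and 1 lower (CDC25A 1.40 and CAD, which begins pyrimidine synthesis, 0.62). With FBS in pcDNA cells alone 14 were higher and 1 lower, with CDC25A at 0.92 and PPAT at 0.39. Their FBS responses were larger in experiment 2 for 1 and smaller for 13 (9.53% and 12.9% of all genes), with CAD at -0.70 and CCND2 at -1.38. Without both Rab25 FBS arrays they were larger for 1 and smaller for 6 (7.45% and 5.37% of all genes), with CAD at -0.73 and CCND2 at -1.33. Of 67 cytosolic ribosomal proteins, 0 were called with IGF, with FBS or with FBS in pcDNA cells alone, and between the experiments 0 were higher and 1, RPL10, was lower by -0.20. Their signals lay near the top of the range, with a median of 14.74 over the list, and whether that narrows their differences was not tested.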

How the data were processed

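Total RNA of 24 samples was measured on 24 arrays. The authors deposited log2 signals per probe set; per the submitters' processing notes MAS5 and RMA were used, with no version, role or order given, so the background correction and the normalization are not known in detail. The members and the gene lists were chosen with earlier results of these data known. Groups followed the labels. One probe set per gene, that of highest mean over the 24 arrays, was used for 11940 genes. Differences were fitted with lmFit and eBayes of limma 3.58.1 (R 4.3.3) over all genes and 10 groups with the experiment as a term, and a further fit added treatment by experiment terms. The residual degrees of freedom were 13 and 9. P-values were adjusted by Benjamini-Hochberg over all genes, with 0.05 as the threshold, and SE is limma's standard error. Every group holds arrays of both experiments, which the labels number, so the experiment term pairs arrays by number. The genes given with values were MYC and, per comparison, the called members of lowest p in each direction, up to 4, or where 0 were called the 2 of lowest p; of other lists, 2 genes of lowest p. NPM1, URB2, PES1 and others given by range were added after their values were seen. Alternatives were other scaling, probe-set, filter and weighting choices and leaving out arrays. The number of arrays limits the precision. The fits were tested on simulated data.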

Additional observations from a re-analysis of the deposited data

Results flagged for a closer look

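In 14 cases a test of the difference itself, in the limma fit with treatment by experiment terms, separated the response of experiment 2 and that of experiment 1 for a member. For EGF this was URB2 at 0.68 (0.0838% of all genes called either way). For IGF these were URB2 at 0.68, RRP1B at 0.41 and RRS1 at 0.70 (1.42% of all genes). Each of these EGF and IGF calls was lost without some single arrays. For FBS the difference was above 0 for NOP2 (0.58), RRS1 (0.53), NOP16 (0.46), RRP9 (0.37) and DDX21 (0.34). It was below 0 for BOP1 (-0.88), NHP2 (-0.48), WDR12 (-0.48), UTP20 (-0.49) and HEATR1 (-0.37). Over all genes 22.5% were called for FBS. All FBS calls but those of BOP1 and UTP20 were lost when either Rab25 FBS array was left out. UTP20 was lost under quantile normalization, median centring or array weights, and without any 1 of 8 arrays. Exposure time and batch cannot be told apart in these differences. Dixon's criterion for an array far from its group picked 0 of 68 sets of 4 starved arrays. Each set holds 2 arrays of either experiment, so a gap between the experiments leaves it little power, and the count says nothing about how alike the arrays were.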

How the results depend on the processing

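Of 2733 values recomputed under alternatives, 2250 concern single genes and the rest are counts of called members, which have no sign. Of the 2250, 2069 stayed on the same side of the threshold, 169 no longer passed and 12 newly passed. Among them 0 changed sign where the main or the alternative fit passed. Where neither passed, changes of sign were not counted and some occurred, as for MYC between the lines (-0.02, and 0.04 within experiment 2). The 27 members higher in starved cells of experiment 2 became 26 to 29, and 25 to 28 when 1 array was left out. The experiment term is the replicate block. Without the replicate block, 1 member was called between the lines and 0 in starved cells between the lines, with IGF, with FBS and for IGF against FBS. Between the lines leaving out 1 array gave 4 to 8, and in starved cells between the lines 1 to 4, with 6 under array weights and 4 without both Rab25 FBS arrays or without the 2 arrays of lowest median. EGF and TGF beta each called 1 member within experiment 2 alone. IGF called 1 within experiment 1 alone and 3 to 10 with 1 array left out. FBS called 5 under array weights, 11 in Rab25 cells alone and 15 to 21 with 1 array left out. IGF against FBS called 0 under array weights, 1 with the median of probe sets, 10 within experiment 1, 1 within experiment 2, 7 without the 2 arrays of lowest median, 0 in pcDNA cells alone and 0 to 8 with 1 array left out. The F test over treatments called 6 after median centring or array weights, 5 without both Rab25 FBS arrays or the 2 of lowest median, and 5 to 11 with 1 array left out. The 0 members of IGF against EGF and of the responses between the lines stayed at 0 in the alternatives run. The causes were not tested.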

Other observations

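Genes that act beside MYC or ODC1 moved in both directions. MXI1, a MAX partner that opposes MYC, was lower with IGF by -0.25 (limma adjusted p = 0.013), lower with FBS by -0.30 (limma adjusted p = 0.000674) and lower in starved cells of experiment 2 than of experiment 1 by -0.62 (limma adjusted p = 2.06e-06). MNT, another such partner, was lower with FBS by -0.88 (limma adjusted p = 0.00432). MYCBP, a MYC-binding protein, was higher with FBS by 0.55 and in starved cells of experiment 2 by 0.64. FBS in pcDNA cells alone gave -0.29 for MXI1, -0.86 for MNT and 0.63 for MYCBP, and all passed. The FBS responses of MNT and MYCBP differed between experiment 2 and experiment 1, by -1.18 (limma adjusted p = 0.000275) and -0.83 (limma adjusted p = 0.000259), so their values over both experiments average unlike responses. Of the 13 MYC network genes measured, 0 were higher and 1 lower with IGF (1.17% and 1.53% of all genes), 1 higher and 3 lower with FBS (6.43% and 10.8%), and 1 higher and 4 lower between the experiments (14.8% and 16.6%, or 31.3% in either direction). FBS in pcDNA cells alone gave 1 higher and 2 lower (4.40% and 6.01%). These comparisons share starved arrays.

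Of 10 polyamine genes, AMD1, which makes the aminopropyl donor, was higher with IGF by 0.26 and with FBS by 0.54, and so was SRM by 0.31 and 0.34, and none of the others was called with either, where 1.17% of all genes were higher with IGF and 6.43% with FBS. FBS in pcDNA cells alone gave 0.52 for AMD1 and 0.39 for SRM, and both passed. In starved cells 3 were higher in experiment 2 and 2 lower (14.8% and 16.6% of all genes), with AMD1 at 0.67 and ARG2, an arginase, at -1.30.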
